A study of Mus musculus with 15 samples.

Results

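Chemokines are small secreted proteins that guide migrating cells, and their receptors sit on the cells that are guided. The 59 protein-coding mouse genes of this family were followed through 15 RNA sequencing libraries of healthy brain and of GL261 glioma, out of 55536 annotated genes. Members were chosen by symbol alone (Ccl, Cxcl, Ccr or Cxcr with a number, and Cx3cl1, Cx3cr1, Xcl1, Xcr1 and Ackr1 to Ackr4), which gave 37 ligands and 22 receptors. Of these, 19 were listed at 0 in every library, 13 were above 0 in some library but too low to test, and 27 reached the level for a test in at least 1 comparison.

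All mice were C57BL/6. GL261 is a glioma line of that strain, grown here in the brain. There were 5 groups of 3 libraries each, namely healthy brain, untreated tumor, and tumor from mice given the antibody B20.4.1.1, which binds VEGF-A, at 50, 100 or 200 µg per dose. Antibody was given from day 10 after implantation and again every 3 days until the endpoint. Tumors were taken after perfusion with saline, and whole tissue was used, so the values mix tumor, immune and vessel cells. The labels number the samples of a group without saying what separates them, so p-values measure the spread between samples, which may be technical.

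In the textbook account, a chemokine binds a receptor of the G protein-coupled class and cells move up its gradient. Inflammatory chemokines are made on demand and draw monocytes, neutrophils or T cells, while homeostatic ones are made steadily and place cells within a tissue. Atypical receptors (the Ackr genes) bind chemokines without driving migration and mostly remove or carry them. In brain, neurons make the membrane-bound ligand Cx3cl1 and microglia carry its receptor Cx3cr1, and gliomas are known to be rich in macrophages that respond to CC chemokines.

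Values are FPKM, fragments per kilobase of transcript scaled to the size of the library, a level per length that can be set side by side between genes. As a check of the labelled tissues, 5 neuron genes (Snap25, Slc17a7, Syt1, Rbfox3 and Camk2a) summed to 1638 to 2436 FPKM in healthy brain and to 2.83 to 16.3 FPKM in the 12 tumor libraries. Read coverage behind 1 FPKM, as listed with the deposited transcripts, was 6.1 to 22.1 fold. Assembly differed between libraries: the share of 12068 genes that no single transcript covered by 50% was 29.2% in 50 µg replicate 3, between 6.35 and 7.95% in 100 µg replicate 3 and the 200 µg libraries, and 10.5 to 13.8% in the other 7 tumor libraries, and in brain it ran from 8.59 to 31.4%. A treatment tag disagreed with the title in 3 tumor libraries, namely replicate 3 of the untreated, 50 µg and 100 µg groups, which it places at the next higher dose, and 1 treated library, 200 µg replicate 3, has no tag. Groups follow the titles, and fits by the tag keep that library at 200 µg.

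Some member values belong in part to a neighboring gene, because a deposited transcript ran through both. Among the 27 tested members, 5 drew 50% or more of a group's value from such transcripts in a group with a mean of at least 0.1 FPKM, namely Ackr1, Ccl27a, Cxcl16, Ccl25 and Xcr1. They are described apart.

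**Figure D1:**
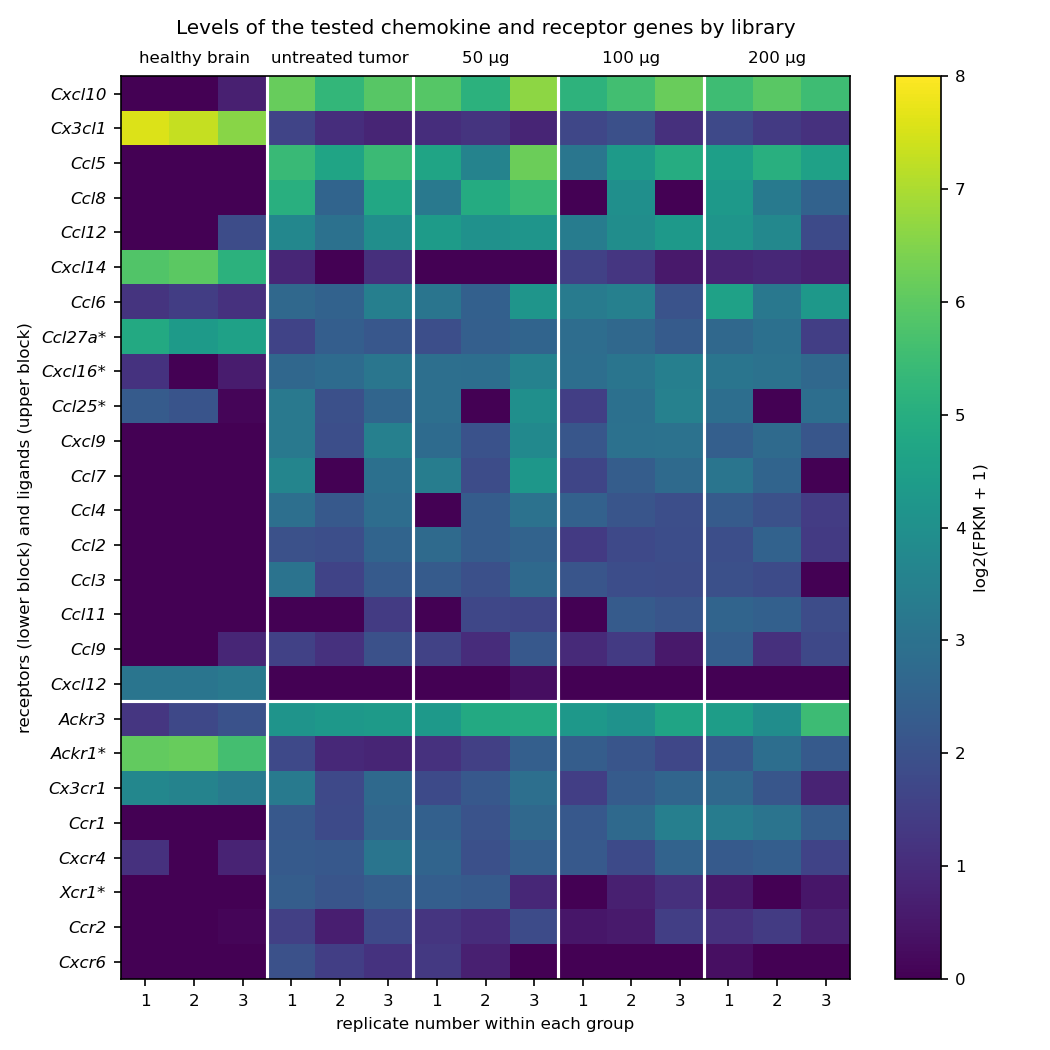
Level of 26 tested members (rows, ligands above the line and receptors below it) in each of the 15 libraries (columns, numbered by replicate within group), as log2(FPKM + 1) by color. An asterisk marks the 5 members whose transcripts were shared with a neighboring gene; Cx3cl1 and Cxcl14 are bright in the healthy brain columns and Cxcl10 and Ccl5 in all 12 tumor columns.

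Healthy brain and untreated tumor held a similar summed level of the family but different genes. Over the 49 members whose values were not set aside as shared with a neighbor the sum was 224 ± 58.4 FPKM in brain and 202 ± 67.8 FPKM in untreated tumor (SD, n = 3). In brain Cx3cl1, Cxcl14 and Cx3cr1 made up 92.7% of it. In untreated tumor the 3 highest were Cxcl10, Ccl5 and Ccl8, together 56.1%, and the number of these members with a mean of at least 1 FPKM was 19, against 7 in brain.

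The first comparison sets untreated tumor against healthy brain, the host tissue, member by member. Of 25 members tested with limma on log2(FPKM + 1), 22 were called at an adjusted p under 0.05, where 61.7% of all 15859 genes tested were called. Of these members 17 were higher in tumor and 5 lower, beside 33.3% and 28.4% of all genes. Without the 5 members with shared transcripts the counts were 15 higher and 3 lower of 20. The median difference was 2.16 for the 25 members and 1.25 for the 14 that were above 0 in both groups, beside 0.14 for all genes, on the log2 scale. The groups did not overlap for 23 of 25 members, beside 69.3% of all genes. Of the 25, 10 were listed at 0 in all brain libraries. These passed the filter on level through tumor alone, so their direction was fixed beforehand. Cxcl12, at 0 in all untreated tumors, is the reverse case. The counts of calls and of groups without overlap include such members. In whole tissue, fewer cells of a type and less RNA per cell cannot be told apart.

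The CXC ligands of the T cell receptor Cxcr3 were the strongest group in tumor. Cxcl10, which is induced by interferon and draws activated T and NK cells (chromosome 5, 92346638 to 92348889, mm10), was listed at 0, 0 and 0.627 FPKM in brain and at 68.9, 38.7 and 59.4 FPKM in untreated tumor. All 3 tumor libraries lay far above all 3 brain libraries, a difference of 5.55 in log2(FPKM + 1) (SE 0.30, adjusted p = 2.11e-05 by limma). Its neighbor Cxcl9, the interferon-gamma-induced ligand of the same receptor, was listed at 0 in all brain libraries and at 8.39, 2.82 and 10.3 FPKM in tumor (adjusted p = 0.00103 by limma). The receptor itself, Cxcr3, was listed at 0 in all 15 libraries.

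Of the 5 inflammatory CC ligands, all 5 were called higher, beside 33.3% of all genes. Ccl5, Ccl4 and Ccl3 were listed at 0 in all brain libraries, so their direction was fixed beforehand. Ccl5, made by T cells, macrophages and glia (chromosome 11, 83525778 to 83530518), was listed at 0 in all 3 brain libraries and reached 41.7, 24.4 and 42.6 FPKM in untreated tumor (adjusted p = 1.45e-05 by limma). Ccl4, a macrophage inflammatory protein, was listed at 0 in brain and at 6.6, 3.68 and 6.32 FPKM in tumor (adjusted p = 0.000102 by limma). Its paralog Ccl3 was likewise listed at 0 in brain and stood at 7.28, 2.02 and 3.78 FPKM in tumor (adjusted p = 0.00167 by limma). Ccl6 and Ccl9, rodent genes of myeloid cells, were above 0 in both tissues. Ccl6 rose from 1.42 ± 0.281 to 6.70 ± 2.77 FPKM and Ccl9 from 0.270 ± 0.468 to 2.04 ± 0.891 FPKM (SD, n = 3), differences of 1.62 and 1.28 on the log2 scale (adjusted p = 0.0023 and 0.0141 by limma). Both of these calls ended with gene values taken as an unweighted FPKM sum over only those transcripts that share an intron with the gene, called the intron-sharing sum from here on (1.09 and 1.75, adjusted p = 0.0606 and 0.0539), and that of Ccl9 also without brain replicate 2 (adjusted p = 0.0515).

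Of the 4 CC ligands that draw monocytes, 3 were called higher. All but Ccl12 were listed at 0 in all brain libraries, so their direction was fixed beforehand. Ccl8 (chromosome 11, 82115185 to 82116799), which in the mouse acts on Ccr8, was listed at 0 in brain and at 32.4, 4.93 and 26.5 FPKM in tumor (adjusted p = 0.0016 by limma). Ccl12, a ligand of Ccr2, was at 0, 0 and 2.59 FPKM in brain and at 12, 6.86 and 14.4 FPKM in tumor, a difference of 2.93 (SE 0.56, adjusted p = 0.00405 by limma). Ccl2, the main monocyte attractant and the ligand for which Ccr2 is named, reached only 2.98, 2.80 and 4.93 FPKM in tumor and was listed at 0 in brain (adjusted p = 0.000198 by limma, but 0.122 with the intron-sharing sum). Ccl7 was listed at 0 in brain and at 11.4, 0 and 6.71 FPKM in tumor, and did not pass (adjusted p = 0.0729 by limma). It was called without untreated replicate 2, the library at 0 (adjusted p = 0.000425).

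RefSeq promoter sequence (GRCm38.p6) is shown for 5 members, to set the letters upstream of tumor and brain ligands beside their levels. They are not the highest in order: Ccl5 is not among the promoters used here, and Cx3cl1, with a single TATA box match 6 bases before the start, is not printed. The letters are the 250 bases before the annotated start, 5′ to 3′ on the strand of the gene. Capitals mark matches, on either strand, to an interferon response element (GAAA, any 2 bases, GAAA), an NF-kB type site (GGGA, any base, TT, any base, CC), a STAT site (TTC, any 3 bases, GAA) or a TATA box (TATAAA). No matches overlap in these 5. The windows are chr5:92348890-92349139 (minus strand) for Cxcl10, chr5:92328080-92328329 (minus) for Cxcl9, chr11:82114935-82115184 (plus) for Ccl8, chr11:82101595-82101844 (plus) for Ccl12 and chr13:56296552-56296801 (minus) for the brain ligand Cxcl14.
Cxcl10: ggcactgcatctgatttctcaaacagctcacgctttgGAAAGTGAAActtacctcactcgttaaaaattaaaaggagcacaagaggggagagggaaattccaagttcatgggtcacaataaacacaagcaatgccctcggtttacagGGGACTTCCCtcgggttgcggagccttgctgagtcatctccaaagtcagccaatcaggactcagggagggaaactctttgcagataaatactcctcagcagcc
Cxcl9: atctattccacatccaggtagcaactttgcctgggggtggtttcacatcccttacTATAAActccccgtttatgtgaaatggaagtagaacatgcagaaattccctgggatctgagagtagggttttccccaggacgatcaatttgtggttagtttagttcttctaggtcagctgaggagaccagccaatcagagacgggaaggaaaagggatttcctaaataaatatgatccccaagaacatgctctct
Ccl8: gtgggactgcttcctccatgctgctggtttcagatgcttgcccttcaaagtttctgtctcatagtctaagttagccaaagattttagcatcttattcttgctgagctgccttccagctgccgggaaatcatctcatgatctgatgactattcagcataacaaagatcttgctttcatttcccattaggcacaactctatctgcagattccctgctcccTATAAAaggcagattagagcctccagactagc
Ccl12: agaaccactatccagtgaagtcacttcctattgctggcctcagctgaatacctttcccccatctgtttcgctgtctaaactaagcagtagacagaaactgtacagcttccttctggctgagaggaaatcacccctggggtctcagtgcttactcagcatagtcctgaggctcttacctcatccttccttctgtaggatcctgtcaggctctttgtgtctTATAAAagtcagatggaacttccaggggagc
Cxcl14: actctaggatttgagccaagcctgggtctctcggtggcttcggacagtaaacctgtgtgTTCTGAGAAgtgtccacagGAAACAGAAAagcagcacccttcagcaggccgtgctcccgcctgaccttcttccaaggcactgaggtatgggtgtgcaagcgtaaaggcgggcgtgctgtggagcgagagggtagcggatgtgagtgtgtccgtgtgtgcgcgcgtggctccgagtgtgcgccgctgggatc

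Cxcl10 held an interferon response element that began 213 bases and an NF-kB type site that began 103 bases before the start. Cxcl9, which rose beside it, matched neither, and had a TATA box match at 195 bases. Ccl8 and Ccl12 had a TATA box match at 32 and 31 bases. Cxcl14, high in brain and near 0 in tumor, had an interferon response element match at 172 bases and a STAT match at 191 bases. The table held 45 of the 59 members. An interferon response element was found in 3 of the 45 (6.67%) and in 2.97% of all 32817 promoters, an NF-kB type site in 5 (11.1%) and 0.981%, a STAT site in 3 (6.67%) and 7.01%, and a TATA box in 12 (26.7%) and 12.4%. These matches describe letters only, not sites in use. Of the 5 members with an NF-kB type site, Cxcl1, Cxcl3 and Ccr3 were listed at 0 in all 15 libraries, and Cxcl2 was above 0 in 3 tumor libraries, at 0.557 to 1.60 FPKM.

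Ligands of the healthy brain fell. Cx3cl1, the tethered neuronal ligand also called fractalkine (chromosome 8, 94772009 to 94782427), was at 189, 155 and 94.6 FPKM in brain and at 2.10, 1.06 and 0.783 FPKM in untreated tumor. Brain lay above tumor in every library, a difference of -5.97 (SE 0.33, adjusted p = 2.25e-05 by limma). Its receptor Cx3cr1, a gene of microglia and some monocytes, was at 11.9, 10.9 and 9.13 FPKM in brain and 8.88, 2.38 and 5.59 FPKM in tumor. Those groups did not overlap, but the difference of -0.94 (95% interval -1.89 to 0.00) did not pass (adjusted p = 0.0765 by limma). It passed after median-of-ratios scaling (-1.15, adjusted p = 0.0371) and without untreated replicate 1 (-1.30, adjusted p = 0.0226).

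Cxcl14, a CXC ligand of epithelia and neurons, was at 55.7, 61.7 and 34.2 FPKM in brain and at 0.831, 0 and 1.13 FPKM in tumor (-4.99, SE 0.36, adjusted p = 5.69e-05 by limma). Of 6 microglia markers, 5 were lower in tumor, among them P2ry12, Siglech, Sall1 and Gpr34, and 1, Tmem119, was higher (2.93, adjusted p = 0.00112 by limma). Neuron and astrocyte markers were lower in 5 of 5 and 4 of 4. The part of these cell types in the lower ligand levels was not tested.

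The Cxcl12 axis split between ligand and receptors. Cxcl12, a homeostatic ligand of vessel and stromal cells, was at 7.60, 7.72 and 8.38 FPKM in brain and listed at 0 in all 3 untreated tumors (adjusted p = 1.2e-05 by limma). It was above 0 in 1 of 12 tumor libraries, at 0.220 FPKM in 50 µg replicate 3, where its coding sequence was not covered. Both of its receptors were higher in tumor. Ackr3, the atypical receptor that takes Cxcl12 up (chromosome 1, 90203980 to 90216751), was at 1.43, 2.35 and 3.00 FPKM in brain and 16.5, 18.3 and 19.6 FPKM in tumor (2.58, SE 0.22, adjusted p = 0.000114 by limma). Cxcr4, the signaling receptor, was at 1.20, 0 and 0.756 FPKM in brain and 3.82, 3.65 and 7.57 FPKM in tumor (1.88, SE 0.38, adjusted p = 0.00502 by limma). Ackr3 was thus the most abundant receptor transcript of untreated tumor.

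Among receptors of inflammatory cells Ccr1 and Cxcr6 were called higher. Both were listed at 0 in all brain libraries, so their direction was fixed beforehand. Ccr1, a receptor of Ccl3 and Ccl5 on monocytes and macrophages, was listed at 0 in brain and at 3.65, 2.48 and 5.21 FPKM in tumor (adjusted p = 0.000279 by limma). Ccr2, the receptor of inflammatory monocytes, was too low to test in this comparison, at 0, 0 and 0.0852 FPKM in brain and 1.88, 0.608 and 2.40 FPKM in tumor. With no filter on low values it was called higher (1.29, adjusted p = 0.0133 by limma). Cxcr6, the receptor of Cxcl16 on T and NKT cells, was listed at 0 in brain and at 2.98, 1.82 and 1.23 FPKM in tumor (adjusted p = 0.00144 by limma).

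**Figure D2:**
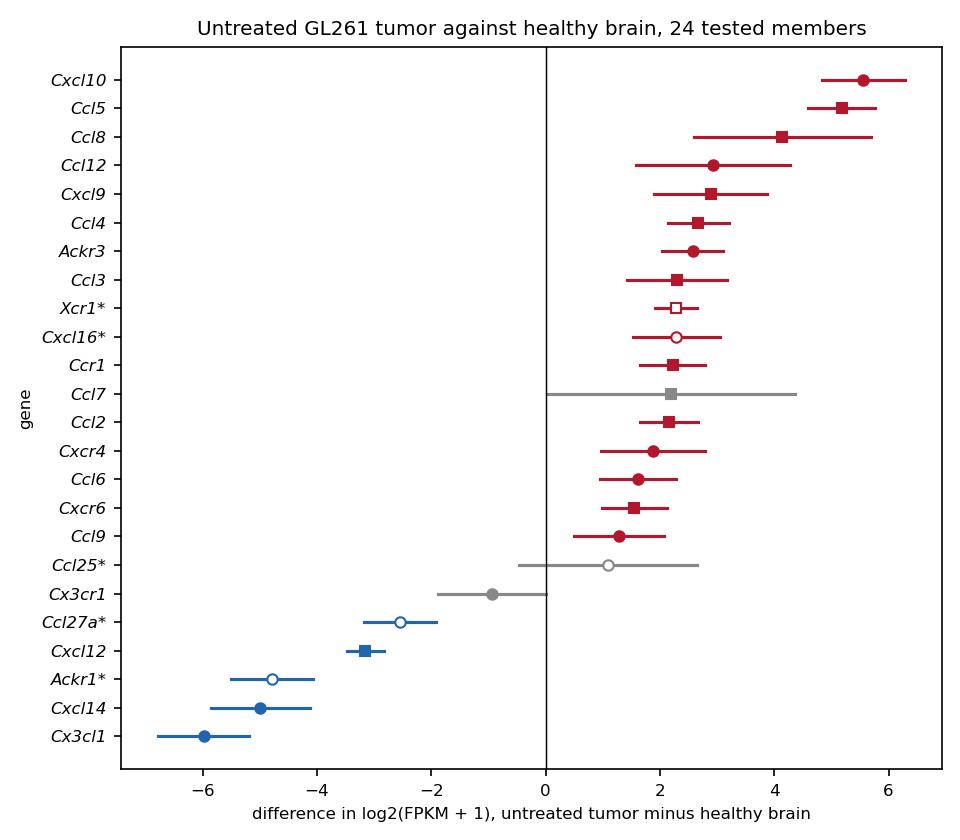
Difference in log2(FPKM + 1) between untreated tumor and healthy brain (x axis) for 24 of the members tested, with bars for the 95% confidence interval of limma; red is called higher, blue called lower and gray not called. Squares mark members listed at 0 in every library of 1 group, for which the size of the difference depends on the added 1, and open symbols with an asterisk mark shared transcripts; 16 of these lie to the right as called and 5 to the left.

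The 5 members with shared transcripts need their parts told apart. Ackr1, the Duffy antigen receptor of venule endothelium and red cell precursors (chromosome 1, 173331886 to 173333750), appeared at 66.4, 69.2 and 48.3 FPKM in brain. All of that came from transcripts that also covered Cadm3, a neuronal adhesion gene beside it, which was at 62.4, 67.8 and 48.9 FPKM there. In untreated tumor Ackr1 was at 2.37, 0.880 and 0.764 FPKM, all from transcripts on Ackr1 alone. The call lower in tumor (-4.78) therefore sets a joint value against an own one, and on own transcripts Ackr1 was listed at 0 in all 3 brain libraries.

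Ccl27a, a skin ligand of Ccr10, was at 28.3, 19.5 and 22.7 FPKM in brain and 2.02, 4.19 and 3.54 FPKM in untreated tumor, with 96.5 and 89.1% of these sums from transcripts that also covered another gene, among them its neighbor Il11ra1. It was called lower in tumor (-2.55, adjusted p = 0.000235 by limma), and so was Il11ra1 (-1.32, adjusted p = 0.0467). Cxcl16, the membrane-bound ligand of Cxcr6 made by macrophages, was at 1.23, 0 and 0.515 FPKM in brain and 5.43, 5.90 and 7.77 FPKM in tumor (2.28, adjusted p = 0.000939 by limma). In untreated tumor 94.7% of it came from transcripts shared with a neighbor, and its neighbor Zmynd15 rose too (2.50, adjusted p = 0.000616 by limma). On transcripts of Cxcl16 alone the values were 1.23, 0 and 0.403 FPKM in brain and 0, 1.0 and 0 FPKM in untreated tumor, which shows no rise. With the intron-sharing sum, which changes both the weights and the transcripts counted, Cxcl16 was no longer called (1.69, adjusted p = 0.185). Ccl25, a gut and thymus ligand of Ccr9, was at 3.94, 3.25 and 0.0685 FPKM in brain and 8.33, 2.87 and 5.09 FPKM in untreated tumor, and did not pass (1.10, adjusted p = 0.182 by limma). Of its tumor value 31.3% came from shared transcripts untreated and 100% at 200 µg.

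Xcr1, the receptor of cross-presenting dendritic cells (chromosome 9, 123852315 to 123862029), was listed at 0 in brain and at 4.14, 3.36 and 4.13 FPKM in untreated tumor, and was called higher (adjusted p = 3.8e-05 by limma). Its transcripts do not show the receptor. In no library did they reach further than 1209 bases into the gene from its 3′ end, and the coding sequence begins at base 3368 counted the same way, so 0% of it was covered in all 15 libraries. None shared an intron with Xcr1, and all but 1 of them, in 50 µg replicate 3, ran on into Fyco1, the next gene, which was itself lower in tumor than in brain (-0.71, adjusted p = 0.0203 by limma). Xcl1, the ligand, was listed at 0 in all libraries. Of 5 dendritic cell markers, Clec9a, a gene of the same dendritic cells, was at 0 in every library but 50 µg replicate 3, at 0.318 FPKM. Flt3 was at 0 in all 12 tumor libraries. Batf3 was at 2.7, 0 and 1.3 FPKM in brain and at 4.65, 0 and 2.16 FPKM in untreated tumor. Itgax, which macrophages express too, was higher in tumor (2.80, adjusted p = 0.000196 by limma), and Zbtb46 was lower (-0.84, adjusted p = 0.00673), though it rose at 200 µg (0.74, adjusted p = 0.0359).

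**Figure D3:**
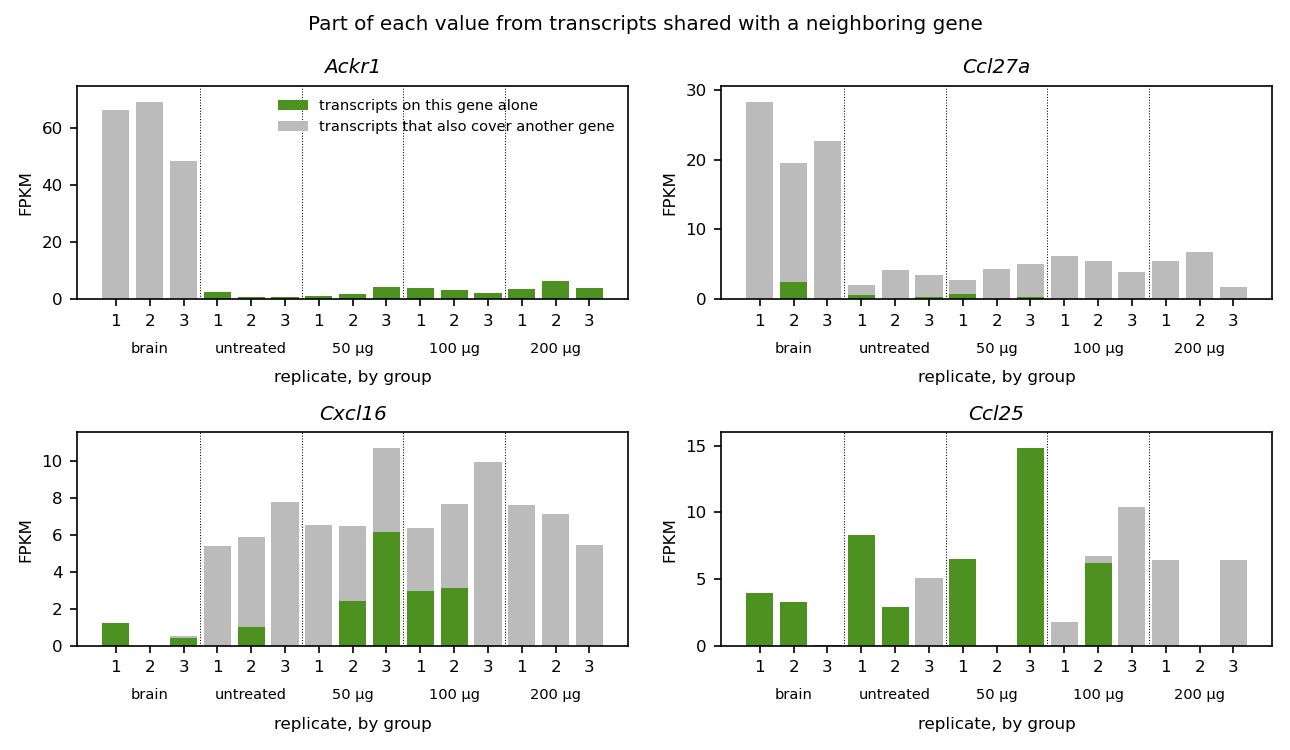
Value in FPKM (y axis, from 0) of 4 members in each of the 15 libraries (x axis, by group and replicate), split into transcripts on that gene alone (green) and transcripts that also cover another gene (gray). Ackr1 is all gray in the 3 brain libraries and all green in the 12 tumor libraries.

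Listed at 0 in all 15 libraries were 13 ligands (Ccl1, Ccl20, Ccl21a, Ccl21b, Ccl26, Ccl27b, Cxcl1, Cxcl3, Cxcl5, Cxcl13, Cxcl15, Cxcl17 and Xcl1) and 6 receptors (Ccr3, Ccr4, Ccr6, Ccr8, Cxcr1 and Cxcr3). Of the 5 member ligands that draw neutrophils through Cxcr2, only Cxcl2 was above 0 in any library. Their receptor Cxcr2 was above 0 in 1 library, at 0.323 FPKM in 50 µg replicate 1, from transcripts with none of its introns that covered 16.7% of its coding sequence. Of 6 neutrophil markers, S100a8 and S100a9 stood at 13.4 and 10 FPKM in that library and were otherwise at 0, except S100a8 in 200 µg replicate 3, at 5.81 FPKM. Mmp8 was above 0 only in the 200 µg libraries, at 1.33, 0.3 and 0.488 FPKM, and Ly6g and Retnlg were at 0 in all 15 libraries. Csf3r was above 0 in 14 of 15, brain included. An exact 0 can also be a failed assembly, so these genes are described only as listed at 0.

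Members above 0 that were too low to test were Ccl17, Ccl19, Ccl22, Ccl24, Ccl28, Cxcl2, Cxcr2, Cxcr5, Ccr7, Ccr9, Ccr10, Ackr2 and Ackr4. Cxcr5, Ackr4 and Ccr9 had 0% of their coding sequence covered, so their values do not show those receptors. Ccr10 ranged from 0 to 2.77 FPKM, and no transcript held one of its introns. Shared transcripts gave 37.2% of its value untreated, 48.5% at 50 µg and 100% at 100 and 200 µg. Ackr2, an atypical receptor that clears inflammatory CC ligands, was at 2.36, 0 and 0.947 FPKM in brain and above 0 in 3 tumor libraries, at 0.241 to 0.809 FPKM. Ccl28, a mucosal ligand, was at 0.827, 0.841 and 1.17 FPKM in brain and at 0 in untreated tumor, and with no filter it was called lower (adjusted p = 0.0013 by limma). Ccl24, an eosinophil ligand, was above 0 in 3 tumor libraries, at 0.784 to 2.38 FPKM, and Ccl19, which guides T cells and dendritic cells to lymph nodes through Ccr7, was above 0 in 3 tumor libraries, at 1.39 to 2.00 FPKM. Ccr7 was above 0 in 6 of 12 tumor libraries, with a highest value of 1.42 FPKM.

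The members varied widely among tumors before dose is considered. Over the 12 tumor libraries Cxcl10 ranged from 34.5 to 98.3 FPKM (median 52.9), Ccl5 from 7.85 to 72.2 FPKM (median 24.5) and Ccl12 from 2.45 to 20 FPKM (median 14.3). Ackr3 ranged from 14.0 to 44.0 FPKM (median 19.4), a ratio of 3.15 between highest and lowest where that of Cxcl10 was 2.85. Ccl8 ranged from 0, in 2 of 12 libraries, to 40.5 FPKM. In some libraries many members were lowest or highest of their group at once. Of the 19 members tested in tumors without shared transcripts, 17 were lowest of their group in untreated replicate 2, 13 in 50 µg replicate 2, 12 in 100 µg replicate 1 and 14 in 200 µg replicate 3, and 14 were highest in 50 µg replicate 3. The same counts were not made over all genes, so they do not set the members apart from a shift of the whole library.

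Markers of monocytes and macrophages moved with some of these libraries. The 8 genes of that list (among them Lyz2, Ly6c2, Adgre1, Cd14 and Ms4a7), of which 7 were called higher in untreated tumor than in brain and 0 lower, summed to 8.40 to 11.2 FPKM in brain. In untreated tumor the sums were 217, 79.8 and 228 FPKM, in replicate order, so that replicate 2 was lowest here too. At 50 µg they were 128, 121 and 263 FPKM, with replicate 3 highest. At 100 µg they were 103, 176 and 127 FPKM, and at 200 µg 290, 211 and 230 FPKM, mostly from Lyz2 (219, 161 and 172 FPKM). The list was split at 200 µg. Lyz2, Arg1, Cd14 and Mrc1 were lowest in replicate 2. Ly6c2 (5.84, 4.2 and 0 FPKM), Adgre1 (6.65, 5.86 and 2.39 FPKM), Itgam and Ms4a7 were lowest in replicate 3. Replicate 3 at 200 µg was lowest for NK cell markers (2.80 FPKM against 13.3 and 18.8) and for endothelial markers (23.7 FPKM against 40.7 and 48.5). No gene of the monocyte list was called at any dose or in the trend. The part of these markers in the member levels was not tested. Without untreated replicate 2, 22 of 24 members tested were called against brain, 21 of them shared with the full set of libraries.

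Each antibody dose was compared with untreated tumor to ask whether VEGF-A blockade moves the family, in a single fit of all 12 tumor libraries. These comparisons share the untreated libraries. At 50 µg 0 of 24 members tested were called by limma, beside 0.0% of 14224 genes, and 0 had an unadjusted p under 0.05, beside 4.01% of all genes. The smallest p belonged to Ackr1, at 1.20, 1.86 and 4.41 FPKM (difference 0.54, 95% interval -0.28 to 1.35, adjusted p = 0.893). By the treatment tag Ackr1 had the opposite sign (-0.17). Ccl4 was at 0, 4.06 and 7.17 FPKM (-0.88, interval -2.25 to 0.48), and without the library at 0, replicate 1, its difference was 0.00997. Ccl2 (0.40, interval -0.27 to 1.06), Ackr3 (0.45, -0.33 to 1.22) and Ccl12 (0.66, -0.50 to 1.83) were the next. Ccl12 stood at 20, 15.7 and 16.9 FPKM at 50 µg, above all 3 untreated libraries, without passing (adjusted p = 0.893 by limma), and its difference was 0.38 without untreated replicate 2. It was the 1 member whose groups did not overlap at this dose, beside 9.47% of all genes.

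At 100 µg 0 of 24 members were called by limma, beside 0.0914% of all genes (0.0773% higher and 0.0141% lower), and 3 had an unadjusted p under 0.05, beside 9.13%. Ccl8 was at 0, 14.8 and 0 FPKM, against 32.4, 4.93 and 26.5 FPKM untreated. The groups overlapped, and its difference of -2.81 (95% interval -5.19 to -0.44) did not pass (adjusted p = 0.453 by limma). Ccl5 was at 7.85, 19.7 and 30.1 FPKM (-1.02, interval -2.36 to 0.32, adjusted p = 0.694 by limma), and its difference was -0.51 without replicate 1. Ccl2 was at 1.59, 2.39 and 2.73 FPKM, all below the lowest untreated value of 2.80 FPKM. It did not pass either (-0.48, adjusted p = 0.707 by limma, and -0.28 without untreated replicate 3). Groups did not overlap for 2 members, Ccl2 and Xcr1, beside 14.7% of all genes. Ackr1 was at 4.10, 3.36 and 2.27 FPKM (0.90, interval 0.09 to 1.71, adjusted p = 0.503 by limma), and the value at Xcr1 fell short of a call as well (-1.67, adjusted p = 0.187). The latter was called, at -1.93 (adjusted p = 0.0244), without 50 µg replicate 3 and 100 µg replicate 3, the libraries that stood apart in assembly.

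At 200 µg 1 of 24 members was called by limma, beside 3.01% of all genes (2.16% higher and 0.851% lower), and 3 had an unadjusted p under 0.05, beside 23.5% of all genes. The median difference of the members was -0.24 and that of all genes 0.04. The call was the value at Xcr1, at 0.437, 0 and 0.397 FPKM against 4.14, 3.36 and 4.13 FPKM untreated (-1.95, SE 0.39, adjusted p = 0.0308 by limma). It describes the transcripts that run from Fyco1 into the 3′ end of Xcr1, not the receptor. Those transcripts summed to 14.1 to 17.4 FPKM in untreated tumors, to 17.1, 15.5 and 3.57 FPKM at 50 µg, and to 0 to 4.69 FPKM in the 6 libraries of 100 and 200 µg. They were not of the same kind in all groups. Transcripts covering 10% or more of another gene gave 0% of the value at Xcr1 untreated and at 50 µg, 73.7% at 100 µg and 100% at 200 µg. Fyco1 itself differed by 0.20 (adjusted p = 0.603). The call ended without any single untreated library (adjusted p = 0.0857, 0.0796 and 0.11 in replicate order) and without any single 200 µg library (0.102, 0.114 and 0.0559). It also ended with a pseudocount of 0.1 (adjusted p = 0.075 by limma). A model term marked 100 µg replicate 3 and the 200 µg libraries, the 4 tumors whose assemblies had the lowest share of genes in pieces. With it the difference was -2.72 (SE 0.68, adjusted p = 0.194 by limma). Because the term covers all 200 µg libraries, 100 µg replicate 3 alone tells it apart from the dose. The loss of the call with it therefore decides little.

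Ligands and receptors with values of their own showed no call at 200 µg. Ccl11, the eosinophil attractant eotaxin (chromosome 11, 82057823 to 82062955), was at 0, 0 and 1.60 FPKM untreated, at 0, 2.25 and 2.16 FPKM at 50 µg, at 0, 3.93 and 3.32 FPKM at 100 µg and at 5.01, 4.45 and 2.61 FPKM at 200 µg. The 200 µg libraries all lay above the untreated ones, yet the difference of 1.84 (95% interval 0.39 to 3.29) did not pass (adjusted p = 0.132 by limma). Its receptor Ccr3 was listed at 0 throughout. Groups that do not overlap were found for 3 of 24 members at this dose, beside 39.2% of all genes. Ccl6 was at 22.7, 8.30 and 18.4 FPKM against 5.50, 4.73 and 9.87 FPKM untreated (1.13, interval -0.03 to 2.30, adjusted p = 0.225 by limma). Ccl3 was at 2.89, 2.55 and 0 FPKM (-1.04, interval -2.15 to 0.07, adjusted p = 0.241 by limma), with replicate 3 at 0, and without that library the difference was -0.41.

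The ligands most abundant in tumor had intervals on both sides of 0. At 200 µg Cxcl10 was at 44.3, 60.5 and 44.8 FPKM, inside the untreated range, with a difference of -0.13 and a 95% interval of -0.97 to 0.71. Ccl5 was at 21.9, 32.3 and 22.7 FPKM (-0.46, interval -1.80 to 0.88) and Cxcl9 at 4.37, 5.82 and 3.39 FPKM (-0.44, interval -1.54 to 0.65). Ccl8 was at 18.9, 8.78 and 4.77 FPKM, with an interval of -3.13 to 1.61 that holds large changes in both directions. Of the receptors, Cxcr4 (-0.44, interval -1.14 to 0.26) and Ackr3 (0.36, -0.42 to 1.13) did not pass. Cx3cr1 was at 5.54, 3.42 and 0.719 FPKM (-0.72, interval -1.92 to 0.49), and of the microglia markers Tmem119 fell at this dose (-3.92, adjusted p = 0.00799 by limma).

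A linear trend over 0, 50, 100 and 200 µg called 2 of 24 members by limma, beside 8.17% of all genes (5.55% higher and 2.62% lower), and 5 had an unadjusted p under 0.05, beside 26.8%. Ackr1 rose with dose, from 2.37, 0.880 and 0.764 FPKM untreated through the values given above to 3.54, 6.48 and 3.81 FPKM at 200 µg, by 0.62 per 100 µg (SE 0.17, adjusted p = 0.0409 by limma). In all 12 tumor libraries its value came from transcripts on Ackr1 alone, which covered 97.9 to 100.0% of its coding sequence. At 200 µg the groups did not overlap and the difference was 1.29 (95% interval 0.47 to 2.10, adjusted p = 0.0764 by limma), and this became a call without 50 µg replicate 3 (adjusted p = 0.0376). Of 4 endothelial markers tested, 0 were called by limma at 200 µg or in the trend, and their median difference at 200 µg was -0.34. Tek, also on that list, was too low to test in tumors. It was at 0, 0.376 and 0.409 FPKM untreated and at 1.31, 1.61 and 0.504 FPKM at 200 µg.

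The trend of Ackr1 sat at the edge of its threshold. Its adjusted p was 0.0916 with the intron-sharing sum, 0.0605 after median-of-ratios scaling, 0.0599 after quantile scaling, 0.0529 without shared transcripts and 0.0627 with groups taken from the treatment tag. It was 0.0848 and 0.102 without untreated replicate 2 or 3, 0.0631 and 0.0641 without 50 µg replicate 1 or 2, and 0.0815, 0.148 and 0.0579 without each 200 µg library. The slope stayed between 0.54 and 0.71 per 100 µg in all leave-one-out fits. With the same assembly term, which largely overlaps with dose, it was 0.95 (SE 0.30, adjusted p = 0.251 by limma).

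Xcr1 was the other call of the trend (-1.02 per 100 µg, SE 0.21, adjusted p = 0.0155 by limma), again for the transcripts from Fyco1, and was lost without 200 µg replicate 2 (adjusted p = 0.0642). Ccl11 (0.89, SE 0.29, adjusted p = 0.0759 by limma) and Ccr1 (0.36, SE 0.17, adjusted p = 0.181) did not pass. With groups by the treatment tag they did (adjusted p = 0.0247 and 0.0313), and Ccl11 also without 100 µg replicate 1 (adjusted p = 0.0426). Ccr1 stood at 9.21, 7.39 and 4.04 FPKM at 200 µg and highest at 10 FPKM in 100 µg replicate 3. Ccl3 sloped the other way (-0.56, SE 0.23, adjusted p = 0.135 by limma), by -0.24 without 200 µg replicate 3.

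Cxcr6 was too low over the tumor libraries to be tested with the filter, and its library values are a description. It was at 2.98, 1.82 and 1.23 FPKM in untreated tumors, 1.49, 0.626 and 0 FPKM at 50 µg, 0, 0.0129 and 0 FPKM at 100 µg and 0.268, 0 and 0 FPKM at 200 µg. With no filter it was called lower at 200 µg (-1.44, SE 0.31, adjusted p = 0.0435 by limma). Cxcr6 (chromosome 9, 123806475 to 123811760) lies inside the span of Fyco1 (123789500 to 123851899), and a transcript with its own intron was assembled in 3 of the 7 tumor libraries above 0. T cell markers summed to 11.7, 12.2 and 12.4 FPKM untreated and 19.2, 19.9 and 13.5 FPKM at 200 µg. Their means went both ways between these groups. Cd3g (5.31 to 10.8 FPKM), Lck (4.91 to 5.17) and Cd3d (0 to 0.604) were higher at 200 µg. Cd3e (0.831 to 0.209 FPKM), Cd8a (0.633 to 0.482) and Cd4 (0.402 to 0.277) were lower. Of that list Cd3g rose in the trend (0.47 per 100 µg, adjusted p = 0.0197 by limma). Lck, the other T cell gene tested, had a slope of 0.01 (adjusted p = 0.98 by limma).

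**Figure D4:**
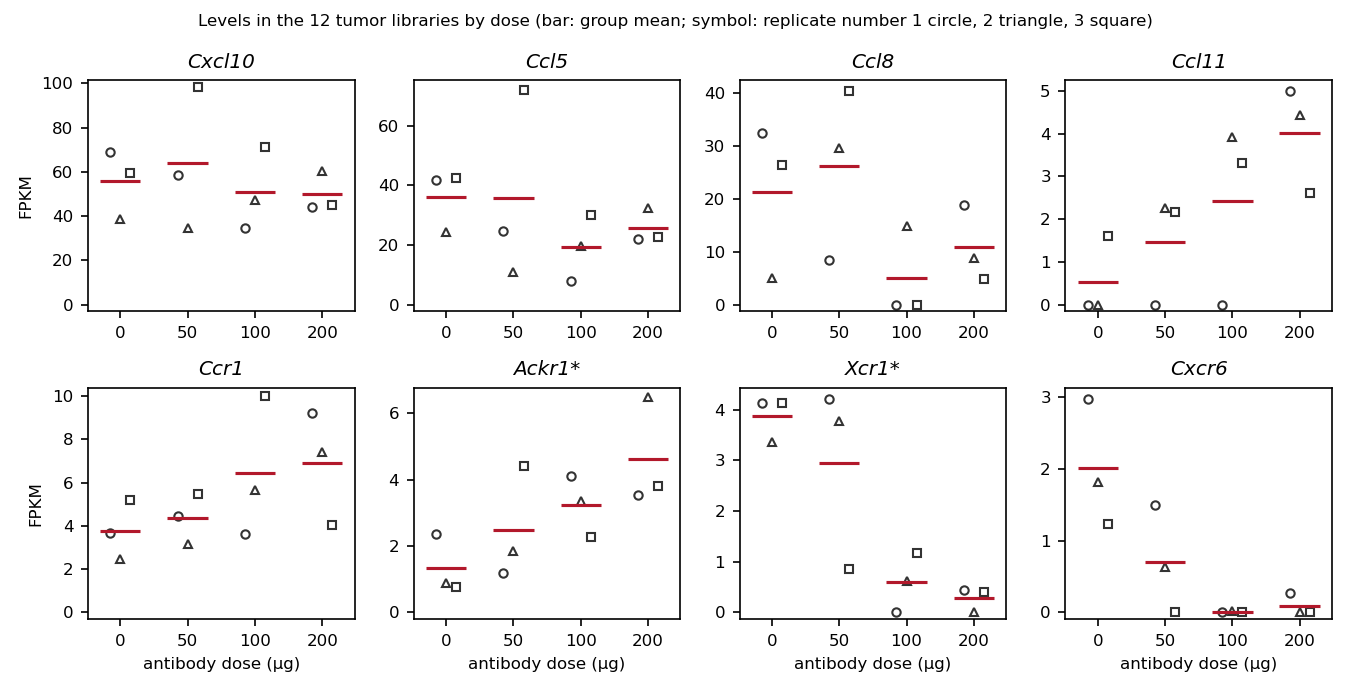
Level in FPKM (y axis) of 8 members in the 12 tumor libraries by antibody dose in µg (x axis), with a symbol for each replicate number and a red bar for the group mean. The means of Ackr1 and Ccl11 are lowest at 0 µg and highest at 200 µg, though their libraries overlap between neighboring doses. The means at Xcr1 and Cxcr6 are lower at 100 and 200 µg than at 0 and 50 µg. Cxcl10, Ccl5 and Ccl8 overlap between doses. Asterisks are as in the plot of levels.

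Other genes of the pathway were taken from lists of fixed membership. Of 18 inducers and transcription regulators of chemokine genes, 14 were tested against brain, 12 were higher in tumor and 2 lower, beside 33.3% and 28.4% of all genes. The interferon regulatory factors Irf7 (4.27, SE 0.15) and Irf1 (4.04, SE 0.29) rose most, and Nfkb2 (-1.18) and Ifngr2 (-0.52) fell. The interferon genes on the list were Ifnb1 and Ifng. Ifnb1 was listed at 0 in all libraries, and Ifng in all but 4 libraries of 100 and 200 µg, at 0.866 to 1.21 FPKM. Of 26 genes of receptor signaling and cell migration, 21 were tested, with 9 higher, among them the kinase Lyn (2.21, SE 0.23), and 6 lower, led by Elmo1 (-5.04) and the receptor kinase Grk3 (-3.45). Beside these counts stand 33.3% higher and 28.4% lower of all genes, so the list is not set apart by them. The brain value of Elmo1 rested on replicate 1, at 1352 FPKM against 13.5 and 11.7 FPKM. Of 5 genes that trim chemokines or dampen their signals, 3 were tested, of which Rgs2 fell (-1.87). In none of these 3 lists was a gene called by limma at 50, 100 or 200 µg or in the trend.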

How the data were processed

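The authors deposited, for each of 15 libraries, assembled transcripts with exon coordinates and FPKM values. Per the submitters' processing notes, STAR and Cufflinks were used with the mm10 genome (versions not given in the sources used here). NEBNext Ultra, the kit in the labels, does not mark strand, so overlapping genes cannot be told apart by it. Transcripts were matched to GENCODE M21 exons. A gene's value was the sum, over transcripts on its exons, of FPKM times the share of exonic length covered. Single-exon transcripts under 200 bp were set aside. A transcript covering 10% or more of another gene was called shared, and a member was treated as shared where 50% or more of a group's value (mean at least 0.1 FPKM) came from such transcripts or where no library had a transcript with one of its introns, or one over its coding sequence.

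Tests used limma 3.58.1 in R 4.3.3 on log2(FPKM + 1), over genes with a mean of at least 1 FPKM in the fit and exons of 200 bp or more, with Benjamini-Hochberg adjustment over all of them. The log2 scale was computed here from the deposited FPKM and understates changes of low genes. The fits were tested on simulated data. Named members were up to 12 called each way against brain and, for doses, all called or the 5 with the smallest p. Members and lists were chosen with earlier results of these data known. Some genes that enter the counts are not reported here by name. Copies of members on unplaced scaffolds were not counted. Alternatives covered gene values, pseudocount, filter, scaling, moderation, replicate block, agent tags, assembly and single libraries.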

Additional observations from a re-analysis of the deposited data

How the results depend on the processing

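Against brain 22 members were called, and 16 to 24 under the alternatives (20 to 22 without a single library). Median-of-ratios scaling moved the all-gene median by -0.21 and gave 17 members higher and 6 lower. Refits of the named members there kept direction and call in 249 cases and lost the call in 2. Refits in which a member fell under the filter on level are not among these cases. Such were Ackr1, Ccl27a and Cxcl16 without shared transcripts, and Xcr1 with the intron-sharing sum. At 50 µg the count was 0 in every fit. At 100 µg it was 0 in every planned fit and 1 without 50 µg replicate 3 and 100 µg replicate 3, a choice made after seeing the data. At 200 µg, 1 member was called, 0 under the intron-sharing sum, pseudocount 0.1 and the term for assembly, 2 with no filter and 2 without those 2 libraries, and 0 to 2 without a single library. In the trend, 2 were called, 0 under the intron-sharing sum and the term, 1 after median-of-ratios or quantile scaling or without shared transcripts, and 0 to 3 without a single library. Signs turned for Ackr1 at 50 µg by agent tag (-0.17) and without the 3 libraries whose tag disagrees (-0.00364), for Ccl4 at 50 µg (from -1.51 to 0.00997 without a single library) and for the trend of Ccr1 with the term (-0.0457). The cause was not tested. The term for assembly covers all 200 µg libraries, so it is hard to tell apart from that dose. The intron-sharing sum left 34 members above 0, against 40, since the 6 others had no transcript with one of their introns. Over all genes the calls ranged from 0 to 6 at 50 µg (main 0), 0 to 52 at 100 µg (main 13), 28 to 2375 at 200 µg (main 428) and 0 to 2185 in the trend (main 1162).

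With replicate number as a block, 22 members were called against brain, 0 at 50 and 100 µg, 0 at 200 µg and 1 in the trend. The numbers were not taken as pairs, since tumor libraries with the same number had correlations of -0.0715 to 0.123 in their deviations (median 0.0202), and brain with tumor -0.0197 to 0.00124. Xcr1 at 200 µg had an adjusted p of 0.0566 and the trend of Ackr1 0.0656 in that fit.

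Coverage of 6.1 to 22.1 fold per FPKM limits members near 1 FPKM, where an unassembled gene is listed at 0. In tumors it was 6.94 to 7.37 fold untreated, 7.15 to 8.42 at 50 µg, 8.9 to 9.23 at 100 µg and 9.45 to 13.2 at 200 µg. Coverage was thus higher in every 200 µg library than in any untreated one. Its part in the dose levels of low members such as Ccl11 and Ackr1 was not tested.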

Other observations

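Members that lie side by side on the genome differed in how far their levels went together. On chromosome 8, between 94745590 and 94812036, Ccl22, Cx3cl1 and Ccl17 are neighbors. Cx3cl1 made up nearly all of their summed 146 FPKM in healthy brain, while Ccl22, a ligand of Ccr4 from dendritic cells, was at 0 there and Ccl17, its closest relative in function, reached 0.523 FPKM in 1 library. In the chromosome 11 group from 82035571 to 82305690 (Ccl2, Ccl7, Ccl11, Ccl12, Ccl8 and Ccl1) 5 of 6 members were above 0 in tumor and 1 in brain, and their sum was 0.864 FPKM in brain and 42.5, 60.1, 27.7 and 32.6 FPKM at 0, 50, 100 and 200 µg. All 5 members of the group from 83525778 to 83664683 (Ccl5, Ccl9, Ccl6, Ccl3 and Ccl4) were above 0 in tumor, at a sum of 1.69 FPKM in brain and 54.9, 55.8, 34.2 and 49.3 FPKM by dose. The 5 neutrophil ligands of the family in 1 stretch of chromosome 5 summed to 0 in brain and in untreated tumor. Ppbp and Pf4, chemokine genes outside the symbol rule, lie between Cxcl5 and Cxcl3. Ppbp was at 1.18 FPKM in untreated replicate 1 and at 0 in every other library.

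Some genes close to the family, but not counted as members, moved against brain as well. Cxcl11, another ligand of Cxcr3 that the annotation does not class as protein-coding, was too low to test against brain. It was listed at 0 in brain and at 1.32, 1.14 and 2.02 FPKM in untreated tumor. Mif, a cytokine that can bind Cxcr4 and Cxcr2, was at 335, 290 and 245 FPKM in brain and 1115, 1006 and 816 FPKM in untreated tumor (1.75, SE 0.20, adjusted p = 0.000387 by limma). Pf4, the platelet chemokine also made by macrophages, rose (1.93, SE 0.54, adjusted p = 0.0204 by limma), and the chemerin gene Rarres2 fell while its receptor Cmklr1 rose (-0.58, adjusted p = 0.0193, and 1.05, adjusted p = 0.0377, by limma). These 5 genes had no call by limma at any dose or in the trend.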
